A study of Mus musculus with 18 samples.

Results

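Testes of mice that received a high fat diet with STZ and also AOS (HFD_STZ_AOS) were compared with testes of mice that received AOS alone (AOS), so that AOS was in both arms and the diet with STZ was what differed. The comparison used 6 of the 18 RNA sequencing libraries of the series, 3 in each group. It covered the 13874 genes, of 20979 in the deposited table, that reached at least 1 RPKM in at least 3 of the 18 libraries. RPKM is the read number of a gene scaled to its length and to the size of its library. The mice were of the outbred ICR stock and 10 weeks old in every group. The labels give AOS as an abbreviation with a dose of 10 mg/kg in both groups, and give no dose or duration for the diet or STZ. The same diet with STZ was also given without AOS (HFD_STZ), with untreated mice as its reference (control), and this pair of 3 and 3 libraries shares no library with the first pair. The remaining 2 groups of the series received the diet with STZ and a transfer of fecal microbiota (FMT) from AOS or from control donors. No label states that the 3 libraries of a group came from separate animals, so p-values measure the spread among these samples.

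Sperm are made in the seminiferous tubules, where germ cells pass through mitotic, meiotic and spermatid stages while Sertoli cells feed and enclose them. Leydig cells lie between the tubules, make testosterone from cholesterol and store lipid. STZ (streptozotocin) is a toxin of the insulin-producing cells of the pancreas, and its use with a high fat diet is a common way to model type 2 diabetes in rodents. In bulk tissue, fewer cells of a type and less RNA per cell cannot be told apart.

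In all 18 libraries together, RPKM values summed to between 588081 and 646822, and 13022 to 13490 genes reached 1 RPKM. Steps between low values implied 12343393 to 13154433 reads per library, but the range was bounded by the window used to search for them. Markers of spermatids, spermatocytes, Sertoli cells and Leydig cells were present in all 6 libraries of the comparison. Among these 6, replicate 3 of HFD_STZ_AOS stood apart by its epididymal and adipose markers, but libraries of other groups were high in them too. The sum of 5 epididymal markers (Crisp1, Cd52, Adam7, Lcn5, Lcn8) was 9.50, 5.05 and 295.2 RPKM in HFD_STZ_AOS, against 1.16, 1.85 and 2.61 RPKM in AOS. Lcn5 and Lcn8 were listed at 0 in all 6 libraries, and 3 of the 5 markers reached 1 RPKM. The epididymal sum was also high in control replicate 3 (300.4 RPKM), HFD_STZ_AOS_FMT replicate 3 (312.8 RPKM) and HFD_STZ_control_FMT replicate 2 (202.5 RPKM). The sum of 4 adipose markers (Adipoq, Plin1, Cidec, Fabp4) was 16.8, 17.7 and 93.4 RPKM in HFD_STZ_AOS, against 27.6, 15.8 and 15.6 RPKM in AOS. It reached 114.2 RPKM in HFD_STZ_AOS_FMT replicate 3 and 127.2 RPKM in HFD_STZ_control_FMT replicate 3. Summed markers of liver and of skeletal muscle stayed under 1 RPKM in all 6, and those of prostate and seminal vesicle were at 0.79, 1.44 and 0.35 RPKM in HFD_STZ_AOS, against 0.65, 0.91 and 1.15 RPKM in AOS.

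**Figure D1:**
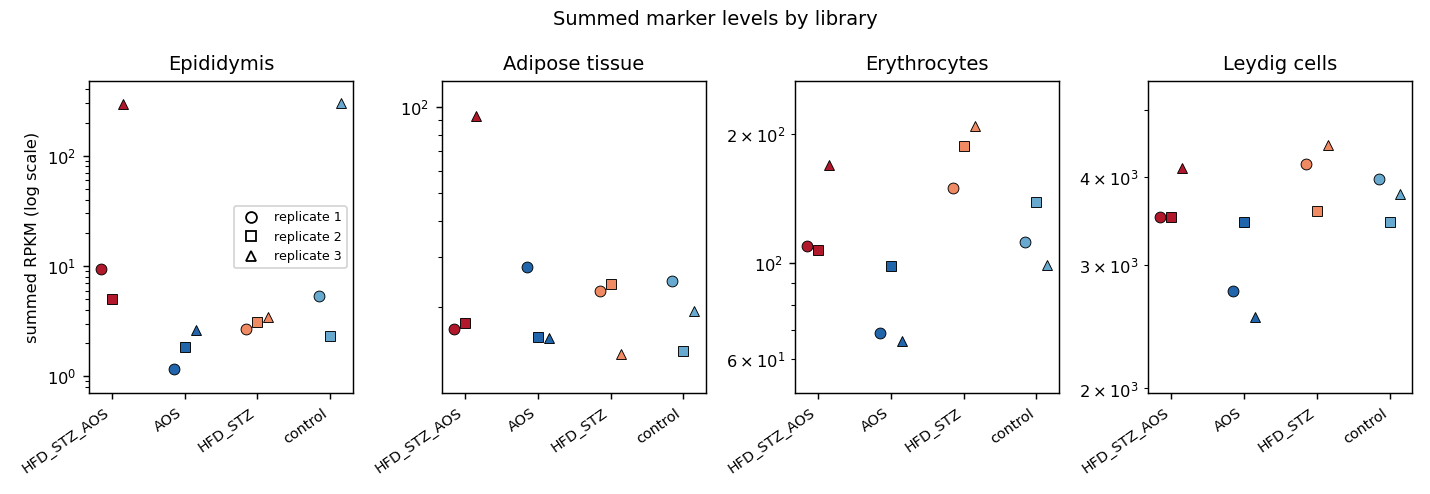
Summed RPKM of marker genes (log scale) in each library of HFD_STZ_AOS, AOS, HFD_STZ and control, with 1 point per library and a shape for each replicate number. Replicate 3 of HFD_STZ_AOS lies at 295.2 for the epididymis and 93.4 for adipose tissue, far above the other libraries of its comparison. Control replicate 3 lies at 300.4 for the epididymis. The erythrocyte and Leydig cell sums of all 3 HFD_STZ_AOS libraries lie above those of AOS.

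Under AOS, 67 genes were higher and 8 lower with the diet and STZ, in limma's moderated test over all 18 libraries with an adjusted p under 0.05 (Benjamini-Hochberg over all genes tested). This was 0.541% of the genes tested, with 0.483% higher and 0.0577% lower. Changes were small. They ran from 0.18 to 1.37 in size on the scale of log2(RPKM + 1), with a median of 0.48, and 3 exceeded 1. That scale understates the change of low genes. In all 75 genes the 3 HFD_STZ_AOS libraries did not overlap the 3 AOS libraries, which was also so for 18.8% of all genes tested. Most calls lay close to the threshold: 57 of the 75 had an adjusted p above 0.04 and 2 had one under 0.01. The first gene outside was Ccnd3, with an adjusted p of 0.0504.

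The number of calls depended on the choices of the fit. Scaling the libraries by median ratios left 12 calls, 7 higher and 5 lower, and shifted the median difference of all genes to 0.00 from 0.04. In a fit on the 6 libraries of the comparison alone, none of the 75 genes was called. Without HFD_STZ_AOS replicate 3, the library of this comparison high in epididymal and adipose markers, 2 genes were called, Hddc3 and Vamp8. Omitting AOS replicate 1 left 3 calls, AOS replicate 2 left 30, AOS replicate 3 left 1 and HFD_STZ_AOS replicate 1 left 16, whereas omitting HFD_STZ_AOS replicate 2 gave 398. All 75 genes kept their direction in each of these 6 omissions, which was fixed in advance because their groups did not overlap. Of the 67 higher genes, 53 were highest in HFD_STZ_AOS replicate 3, 9 in replicate 1 and 5 in replicate 2. Among all genes tested, 46.5% were highest of the 3 in replicate 3. The part of the epididymal and adipose RNA in these calls was not tested beyond 2 omissions. These left out that library, or the 4 libraries above 100 RPKM of Crisp1 (given in the closing section).

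Hddc3 and Vamp8 were the firmest calls. Hddc3, which encodes a hydrolase of the HD domain family that removes a phosphate from NADPH, lies on chromosome 7 (mm10, 80343104 to 80350547, plus strand). It had 11.3, 10.6 and 14.4 RPKM in HFD_STZ_AOS, against 6.76, 6.89 and 7.15 RPKM in AOS. Every HFD_STZ_AOS library was above every AOS library, and the AOS libraries spread over less than 1 RPKM. The difference was 0.71 ± 0.08 on the log2 scale (SE, n = 3 each; limma adjusted p = 0.00481), and 0.59 without HFD_STZ_AOS replicate 3. It stayed past the threshold in 14 of 15 alternatives, the exception being the fit on 6 libraries, where the adjusted p was 0.205.

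Vamp8, a vesicle SNARE protein of endosomes that also takes part in the fusion of autophagosomes with lysosomes, lies on chromosome 6 (72385223 to 72390703, minus strand). Its RPKM was 9.26, 9.44 and 9.52 in HFD_STZ_AOS, against 5.47, 6.20 and 5.11 in AOS. The HFD_STZ_AOS libraries lay close together, at 9.41 ± 0.13 RPKM (SD, n = 3), and apart from AOS at 5.59 ± 0.56 RPKM (SD, n = 3). The difference was 0.66 ± 0.08 (SE; limma adjusted p = 0.00505) and 0.65 without HFD_STZ_AOS replicate 3. It passed in 12 of 15 alternatives, with a highest adjusted p of 0.153.

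Fitm1 and Fabp3, which act on lipids, were called higher. Fitm1, a membrane protein of the endoplasmic reticulum that drives the formation of lipid droplets, had the largest change. Its level was 24.1, 13.9 and 36.5 RPKM in HFD_STZ_AOS, against 7.33, 9.65 and 8.16 RPKM in AOS. The groups did not overlap, and the HFD_STZ_AOS libraries differed among themselves by more than the AOS libraries did. The difference was 1.37 ± 0.23 (SE, n = 3 each; limma adjusted p = 0.0394), and 1.06 without HFD_STZ_AOS replicate 3, where it no longer passed. Fabp3, the heart type fatty acid binding protein, had 217, 237 and 230 RPKM in HFD_STZ_AOS, against 130, 178 and 117 RPKM in AOS. Its HFD_STZ_AOS libraries were even and AOS replicate 2 was the nearest to them (difference 0.70 ± 0.15, limma adjusted p = 0.0484). Its value is uncertain in part, as 29.2% of the 50-base words of its longest transcript also occur in the pseudogene Fabp3-ps1.

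Lcn2, a secreted carrier of iron-binding siderophores that many epithelia make in inflammation, was the most abundant of the 12 higher genes with the largest differences, per length. It had 368, 483 and 748 RPKM in HFD_STZ_AOS, against 227, 305 and 215 RPKM in AOS. The lowest HFD_STZ_AOS library was above the highest AOS library, and replicate 3 was highest (difference 1.05 ± 0.21, limma adjusted p = 0.0484). Cpne5, a copine that binds membranes in a calcium-dependent way, had 9.39, 8.87 and 11.9 RPKM in HFD_STZ_AOS, against 5.16, 4.59 and 4.72 RPKM in AOS. The groups were well apart, at 10.1 ± 1.6 RPKM in HFD_STZ_AOS and 4.82 ± 0.30 RPKM in AOS (SD, n = 3 each), with a difference of 0.92 ± 0.14 (limma adjusted p = 0.0355). Srrd, a protein with an SRR1 domain, had 38.9, 31.7 and 50.3 RPKM in HFD_STZ_AOS, against 25.8, 22.3 and 22.8 RPKM in AOS (difference 0.73 ± 0.12, limma adjusted p = 0.0394). Replicate 3 was again the highest, as it was for Vill, Uckl1, Myrf, Nek8 and Syt5.

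The differences of these 5 genes were 0.91, 0.89, 0.74, 0.70 and 0.69 on the log2 scale. Vill, a relative of the actin-bundling protein villin, averaged 4.78 ± 2.2 RPKM in HFD_STZ_AOS and 1.95 ± 0.30 RPKM in AOS. Uckl1, a relative of the uridine-cytidine kinases, averaged 9.93 ± 4.2 RPKM in HFD_STZ_AOS and 4.66 ± 0.64 RPKM in AOS. Myrf, a membrane-bound transcription factor known from myelin genes, averaged 2.23 ± 0.53 RPKM in HFD_STZ_AOS and 0.927 ± 0.28 RPKM in AOS. Nek8, a kinase of the primary cilium, averaged 7.76 ± 2.4 RPKM in HFD_STZ_AOS and 4.26 ± 0.15 RPKM in AOS. Syt5 is a calcium sensor of vesicle release and was at 5.59 to 8.33 RPKM in HFD_STZ_AOS, against 3.23 to 4.47 RPKM in AOS. Gm13305, with a difference of 1.31, is uncertain, because 70.8% of the 50-base words of its longest transcript also occur in other annotated genes, mainly in Il11ra1, a receptor of interleukin 11.

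Further calls with higher values fell in several processes. Tpi1, the triosephosphate isomerase of glycolysis, had 201, 182 and 233 RPKM in HFD_STZ_AOS, against 161, 163 and 155 RPKM in AOS. Gsta4, a glutathione transferase that removes products of lipid peroxidation, had 63.7, 73.0 and 80.1 RPKM in HFD_STZ_AOS, against 48.5, 61.1 and 51.3 RPKM in AOS. Atf4, the transcription factor of the integrated stress response, had 26.6, 24.8 and 25.4 RPKM in HFD_STZ_AOS, against 21.2, 21.1 and 22.0 RPKM in AOS. For each of the 3 the groups did not overlap, and the changes were 0.36, 0.42 and 0.24 on the log2 scale (limma adjusted p = 0.0394 for Tpi1 and 0.0484 for Gsta4 and Atf4).

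Rpl10a, a protein of the large ribosomal subunit, had 104, 97.8 and 99.6 RPKM in HFD_STZ_AOS, against 85.2, 80.2 and 77.6 RPKM in AOS (difference 0.31 ± 0.05, limma adjusted p = 0.0394). Adi1, an enzyme of methionine salvage, had 4.50, 4.31 and 6.47 RPKM in HFD_STZ_AOS, against 3.24, 3.10 and 3.05 RPKM in AOS (difference 0.54 ± 0.12, limma adjusted p = 0.0484). Neither gene overlapped between the groups. The remaining higher genes had differences of 0.18 to 0.69 and included Fkbp10 (a chaperone of collagen), Rbp4 (the retinol carrier of blood), Ctsh and Cln3 (proteins of the lysosome) and Nfkb1 (a subunit of NF-kappa B). Genes with copies or pseudogenes were among them: the 50-base words shared with other genes made up 87.6% for H2al1g, 98.3% for H2al1k, 54.7% for Gm5646, 49.1% for Rpl36a and 25.4% for Rpl10a. Of the 75 called genes, 48 shared no such word and 5 shared 50% or more.

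**Figure D2:**
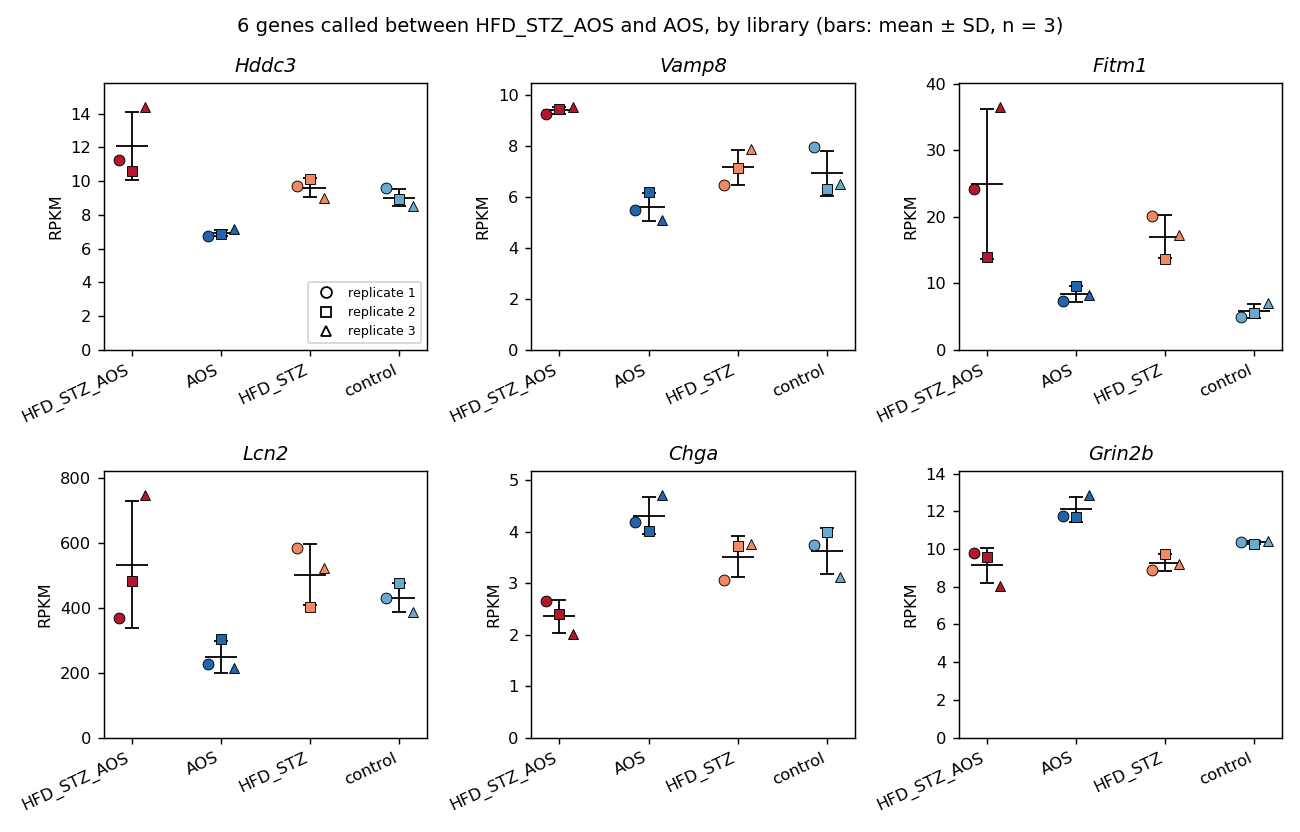
RPKM of 6 called genes in each library of HFD_STZ_AOS, AOS, HFD_STZ and control, with means and SD (n = 3 each). Hddc3, Vamp8, Fitm1 and Lcn2 are higher and Chga and Grin2b lower in all 3 HFD_STZ_AOS libraries than in all 3 AOS libraries, while Fitm1 is also apart between HFD_STZ and control and Hddc3, Vamp8, Lcn2 and Chga overlap there.

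The 8 lower genes were Pcdha12, Chga, Sox17, Grin2b, Shisa3, Arl9, Cfap74 and Klc2. Chga encodes chromogranin A, the core protein of endocrine secretory granules, and had 2.65, 2.41 and 2.02 RPKM in HFD_STZ_AOS, against 4.20, 4.02 and 4.72 RPKM in AOS. All HFD_STZ_AOS libraries were under all AOS libraries (difference -0.66 ± 0.12, limma adjusted p = 0.0449). Sox17, a transcription factor of endoderm and endothelium, had 4.60, 4.93 and 3.82 RPKM in HFD_STZ_AOS, against 5.99, 6.97 and 7.42 RPKM in AOS (difference -0.52 ± 0.11, limma adjusted p = 0.0484). Grin2b, a subunit of the NMDA glutamate receptor, had 9.77, 9.59 and 8.06 RPKM in HFD_STZ_AOS, against 11.8, 11.7 and 12.9 RPKM in AOS (difference -0.37 ± 0.06, limma adjusted p = 0.0394). For Sox17 and Grin2b, too, the groups were apart, with replicate 3 the lowest of HFD_STZ_AOS.

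Arl9, a small GTPase of the ARF-like family, had 79.9, 80.6 and 77.8 RPKM in HFD_STZ_AOS, against 102, 91.1 and 103 RPKM in AOS, a fall by 0.31 on the log2 scale. Cfap74, a protein of the central pair of the sperm axoneme, had 27.6, 28.8 and 25.9 RPKM in HFD_STZ_AOS, against 32.9, 33.6 and 32.4 RPKM in AOS, a fall by 0.26. The groups did not overlap for either gene, and for Cfap74 the gap between them was wider than the spread within each. Shisa3, which dampens Wnt and FGF signalling, fell by 0.32, and Klc2, a light chain of kinesin, fell by 0.21. Pcdha12 fell by 0.67 but is uncertain, as the protocadherin alpha genes share their 3′ exons and 59.3% of its 50-base words occur in other genes.

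No germ cell list had a called member, but the lists do not hold every germ cell gene. Cfap74 of the sperm axoneme, called lower, was not on the axoneme list. H2al1g and H2al1k, called higher with differences of 0.42 and 0.37, were on no list either. Of the tested members, 7 of 14 spermatogonial genes, 22 of 36 of meiotic recombination, 12 of 30 of round spermatids, 12 of 30 of elongating spermatids, 14 of 34 of the axoneme and 13 of 20 of the piRNA pathway were higher in HFD_STZ_AOS, where 64.0% of all genes were. Their median differences lay between -0.02 and 0.07, against 0.04 for all genes, and with median-ratio scaling the piRNA median turned from 0.03 to -0.01. The spermatid counts depended on the processing. With that scaling, 5 of 30 round spermatid genes (median -0.05) and 5 of 30 elongating spermatid genes (median -0.06) were higher, against 51.3% of all genes. With the length trend removed, 5 of 30 and 2 of 30 were higher, against 49.4% of all genes. At an unadjusted p under 0.05, 6 and 11 were lower, where 16.8% of all genes passed in either direction. Without HFD_STZ_AOS replicate 3, 20 of 30 round spermatid genes (median 0.02) and 16 of 30 elongating spermatid genes (median 0.00) were higher. Of all genes, 60.5% were higher in that fit. Sycp3, of the meiotic chromosome axis, had 183, 192 and 167 RPKM in HFD_STZ_AOS, against 166, 197 and 170 RPKM in AOS, and the groups overlapped. Prm1 and Tnp1, which pack sperm DNA, differed by 0.06 and 0.00. At an unadjusted p under 0.05, which 12.4% of all genes passed upwards and 3.75% downwards, the axoneme list had 3 members higher and 6 lower, among them Spag16 (0.17), Wdr60 (-0.21) and Spag17 (-0.24).

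No Sertoli or Leydig list member was called. With all libraries, 64.0% of all genes were higher, and 12.4% were higher at an unadjusted p under 0.05. In the Sertoli list, 22 of 28 members were higher (median 0.09), 7 of them at an unadjusted p under 0.05. Without HFD_STZ_AOS replicate 3 it was 18 of 28 (median 0.05), 4 of them at that level. In that fit 60.5% of all genes were higher, and 9.68% passed that level in either direction. With median-ratio scaling 16 of 28 were higher, against 51.3% of all genes. Fshr, the receptor of follicle-stimulating hormone, had 1.57, 1.55 and 2.30 RPKM in HFD_STZ_AOS, against 0.95, 1.06 and 0.97 RPKM in AOS (difference 0.48, limma adjusted p = 0.109). Its groups did not overlap. Among 20 Leydig genes 17 were higher (median 0.14), and the median was 0.00 without HFD_STZ_AOS replicate 3. Insl3, the peptide hormone of Leydig cells, had 3046, 3030 and 3643 RPKM in HFD_STZ_AOS, against 2347, 2930 and 2119 RPKM in AOS (difference 0.40, limma adjusted p = 0.235). Star, which carries cholesterol into mitochondria, overlapped between the groups with 65.2 RPKM in HFD_STZ_AOS replicate 3 and 30.1 to 36.5 RPKM elsewhere in the comparison. The summed Leydig markers were 3516, 3507 and 4121 RPKM in HFD_STZ_AOS, against 2754, 3450 and 2531 RPKM in AOS. In an exact two-sided permutation test this gave p = 0.1, the smallest that 3 against 3 libraries allow. Insl3 made up most of this sum, with means of 3239 of 3715 RPKM in HFD_STZ_AOS and 2465 of 2911 RPKM in AOS. The other members, Star, Cyp11a1, Cyp17a1 and Hsd3b1, overlapped between the groups, and Cyp17a1 was lower in HFD_STZ_AOS (difference -0.06). Summed erythrocyte markers gave the same p, with 109.5, 107.2 and 169.4 RPKM in HFD_STZ_AOS and 69.1, 98.8 and 66.2 RPKM in AOS.

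For the lists that follow, the reference is 64.0% of all genes higher, and 12.4% higher at an unadjusted p under 0.05. In the fit without HFD_STZ_AOS replicate 3, 60.5% of all genes were higher. All 23 members of the extracellular matrix list were higher, 5 of them at an unadjusted p under 0.05, and the median was 0.24. Without HFD_STZ_AOS replicate 3 the median was 0.05, with 20 of 23 higher, and with median-ratio scaling it was 0.21 with 22 higher. Lum, a collagen-binding proteoglycan, had 3.16, 2.50 and 4.46 RPKM in HFD_STZ_AOS, against 1.85, 1.90 and 1.67 RPKM in AOS (difference 0.62, limma adjusted p = 0.0751). Timp1, an inhibitor of matrix proteases, reached 8.23 RPKM in replicate 3 and 2.26 and 2.00 RPKM in the other HFD_STZ_AOS libraries, against 1.55 to 1.65 RPKM in AOS. Other lists were also pulled by that library: the adipose median was 0.33 (14 of 16 higher) and -0.05 without it, the epididymal median 0.65 (9 of 10 higher) and 0.19 without it, the erythrocyte median 0.92 (4 of 4 higher) and 0.39 without it, and the macrophage and leukocyte median 0.07 (11 of 18 higher) and -0.08 without it. Peritubular myoid genes were higher in 11 of 11 (median 0.12, and 0.03 without replicate 3). Endothelial genes were higher in 9 of 15, with a median of 0.13 and with Sox17 as the called lower member. Genes of blood-testis barrier junctions were higher in 13 of 18, with a median of 0.04 that turned to -0.03 without replicate 3.

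In metabolism, fatty acid oxidation had 20 of 24 members higher and a median of 0.14, with 8 higher and 1 lower at an unadjusted p under 0.05, where 12.4% and 3.75% of all genes passed. Without HFD_STZ_AOS replicate 3 the median was 0.07, with 20 of 24 higher and 6 of them at that level. In that fit 9.68% of all genes passed that level in either direction. Acadvl, which starts the oxidation of very long fatty acids, had 13.8, 11.7 and 16.3 RPKM in HFD_STZ_AOS, against 11.2, 10.3 and 10.2 RPKM in AOS (difference 0.36, limma adjusted p = 0.0868). Lipid droplet genes were higher in 9 of 15 (median 0.12, and 0.02 without that library) and cholesterol synthesis in 17 of 23 (0.05, and 0.01 with 13 of 23 higher without it). The other counts were nuclear oxidative phosphorylation with 24 of 38 higher (median 0.05) and glycolysis with 13 of 28 (-0.02). With all libraries, 64.0% of all genes were higher. In glycolysis Tpi1 was called higher, while Gpi1, the glucose phosphate isomerase, had 224, 236 and 220 RPKM in HFD_STZ_AOS, against 252, 252 and 250.0 RPKM in AOS (difference -0.15, limma adjusted p = 0.103). Those groups did not overlap either. Antioxidant and glutathione genes were higher in 21 of 31 (median 0.10), 8 of them at an unadjusted p under 0.05, with Gsta4 as the called member. At that level 2 members were higher without HFD_STZ_AOS replicate 3 (median 0.08), where 9.68% of all genes passed in either direction. With median-ratio scaling 4 were, where 15.6% of all genes passed in either direction.

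Cytosolic ribosomal proteins had 29 of 35 members higher, against 64.0% of all genes, and a median of 0.11. At an unadjusted p under 0.05, 17 members were higher, where 12.4% of all genes passed. None of the 35 was called (Rpl10a and Rpl36a were not on the list), and with median-ratio scaling the median was 0.07 and 9 members were higher at that level. With that scaling 15.6% of all genes passed the level in either direction. Rps15 had 412, 381 and 417 RPKM in HFD_STZ_AOS, against 332, 341 and 343 RPKM in AOS (difference 0.25, limma adjusted p = 0.0751). Rpsa differed by 0.17. Ribosomal protein genes have short transcripts and many pseudogenes. Called higher genes had a median longest transcript of 2139 bases, against 3501 bases for called lower genes and 3101 bases for all genes tested. When each library's trend on transcript length was removed, 4 genes were called, Cpne5, Hddc3, H2al1g and Vamp8.

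In lists of stress and signalling, 2 genes were called, and the counts below stand beside 64.0% of all genes higher. Endoplasmic reticulum chaperones were higher in 10 of 21 (median -0.01, with Atf4 the called member), cytosolic heat shock genes in 11 of 19 (0.02, and -0.02 with median-ratio scaling), apoptosis genes in 16 of 20 (0.08), immediate early genes in 8 of 15 (0.00, and -0.04 without HFD_STZ_AOS replicate 3), circadian clock genes in 9 of 15 (0.00, and -0.03 without it), insulin and IGF signalling in 16 of 20 (0.09) and glucocorticoid responsive genes in 11 of 13 (0.11, with Lcn2 the called member). A single call in lists of this size is no result about a list. Hsph1, a cytosolic chaperone, had 13.8, 14.8 and 12.7 RPKM in HFD_STZ_AOS, against 15.8, 16.0 and 17.3 RPKM in AOS (difference -0.24, limma adjusted p = 0.0751). Mcl1, which blocks apoptosis, had a difference of 0.22 (limma adjusted p = 0.0887).

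In the list of MHC class I antigen processing, 10 of 16 members were higher (median 0.04), against 64.0% of all genes, and none was called. The 3 members with the smallest p were lower. Tap1, a subunit of the peptide transporter, had 0.53, 1.09 and 1.15 RPKM in HFD_STZ_AOS, against 3.79, 7.52 and 3.72 RPKM in AOS. The groups were apart (difference -1.60 ± 0.38, limma adjusted p = 0.0707). Psmb9, an inducible subunit of the proteasome, had 1.11, 0.54 and 1.52 RPKM in HFD_STZ_AOS, against 2.36, 6.56 and 3.49 RPKM in AOS (difference -1.27 ± 0.34, limma adjusted p = 0.0893). Tap2, the partner of Tap1, differed by -0.74 ± 0.24. These 3 genes lie together on chromosome 17 (mm10, 34181987 to 34216321). In the interferon response list 7 of 15 members were higher (median -0.09).

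**Figure D3:**
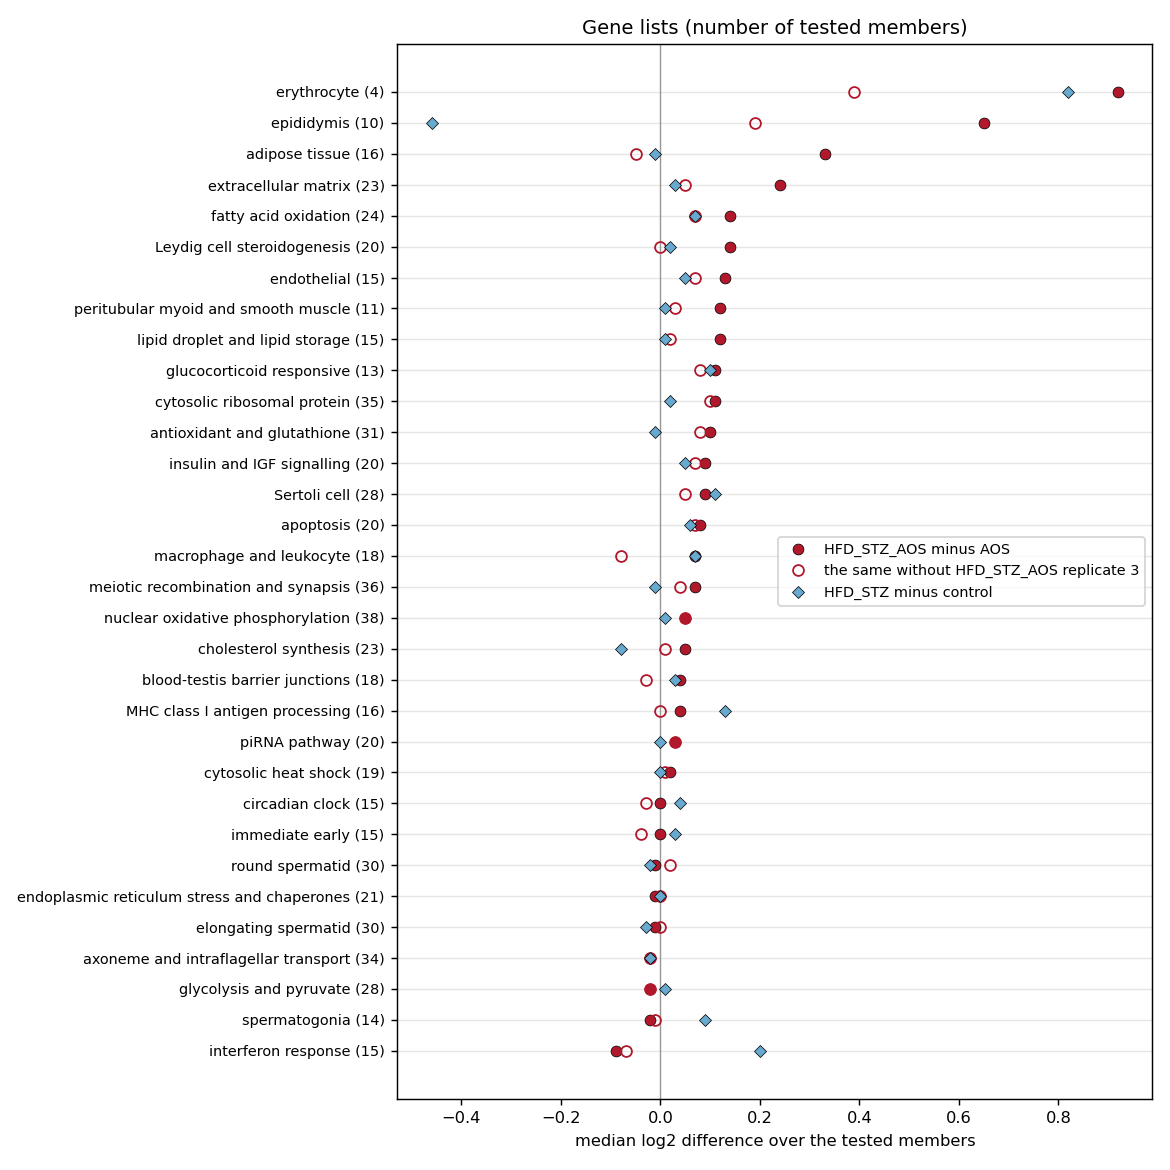
Median log2 difference over the tested members of each gene list, for HFD_STZ_AOS minus AOS with all libraries (filled circles), the same without HFD_STZ_AOS replicate 3 (open circles) and HFD_STZ minus control (diamonds). The extracellular matrix and adipose medians stand at 0.24 and 0.33 with all libraries and at 0.05 and -0.05 without that library, while the ribosomal protein median stands at 0.11 and 0.10.

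Without AOS, the diet with STZ gave no call. HFD_STZ against control had 0 genes under an adjusted p of 0.05 in limma (0.0% of those tested), with 1151 at an unadjusted p under 0.05 (8.3%) and a smallest adjusted p of 0.0661. Under AOS 2242 genes (16.2%) passed that unadjusted level. Of the 75 genes called under AOS, 68 (90.7%) differed in the same direction without AOS, as did 63.9% of all genes, and 41 did so at an unadjusted p under 0.05. Their median difference in the called direction was 0.48 under AOS and 0.19 without AOS. The test of the difference between both effects called 0 genes (0.0%), with 640 at an unadjusted p under 0.05 (4.61%) and a smallest adjusted p of 0.495. Among the 75, which were chosen for their effect under AOS, 33 (44.0%) had an unadjusted p under 0.05 there.

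Some genes had differences of similar size in both pairs of groups. Fitm1, with a difference of 1.37 under AOS, had 20.1, 13.6 and 17.2 RPKM in HFD_STZ, against 4.86, 5.54 and 6.99 RPKM in control. That difference was 1.40 ± 0.23 (limma adjusted p = 0.143), and the groups did not overlap in either pair. Arl9 differed by -0.31 under AOS and -0.26 without it, and Shisa3 by -0.32 and -0.25. Brsk1, a kinase of neuronal polarity, had differences of 0.57 under AOS and 0.53 without it, and Tspan4, a tetraspanin, 0.55 and 0.53.

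Other genes differed little without AOS. Hddc3 had 9.73, 10.1 and 9.01 RPKM in HFD_STZ, against 9.57, 8.96 and 8.55 RPKM in control, groups that overlap. The difference was 0.08 ± 0.08 and the change in effect was 0.63 ± 0.12 (unadjusted p = 8.74e-05, limma adjusted p = 0.495). Vamp8 had 6.49, 7.12 and 7.87 RPKM in HFD_STZ, against 7.95, 6.32 and 6.50 RPKM in control, and its change in effect was 0.62 ± 0.12 (limma adjusted p = 0.495). For both genes the control libraries lay between those of HFD_STZ_AOS and AOS. Chga differed by -0.03 without AOS, and Lcn2 by 0.21, with 585, 401 and 521 RPKM in HFD_STZ and 431, 476 and 387 RPKM in control. In 49 of the 67 higher genes the AOS mean was below the control mean, and in 65 of the 67 the HFD_STZ_AOS mean was above the HFD_STZ mean. These means belong to genes selected for a low AOS level against HFD_STZ_AOS, and they are given as a description.

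**Figure D4:**
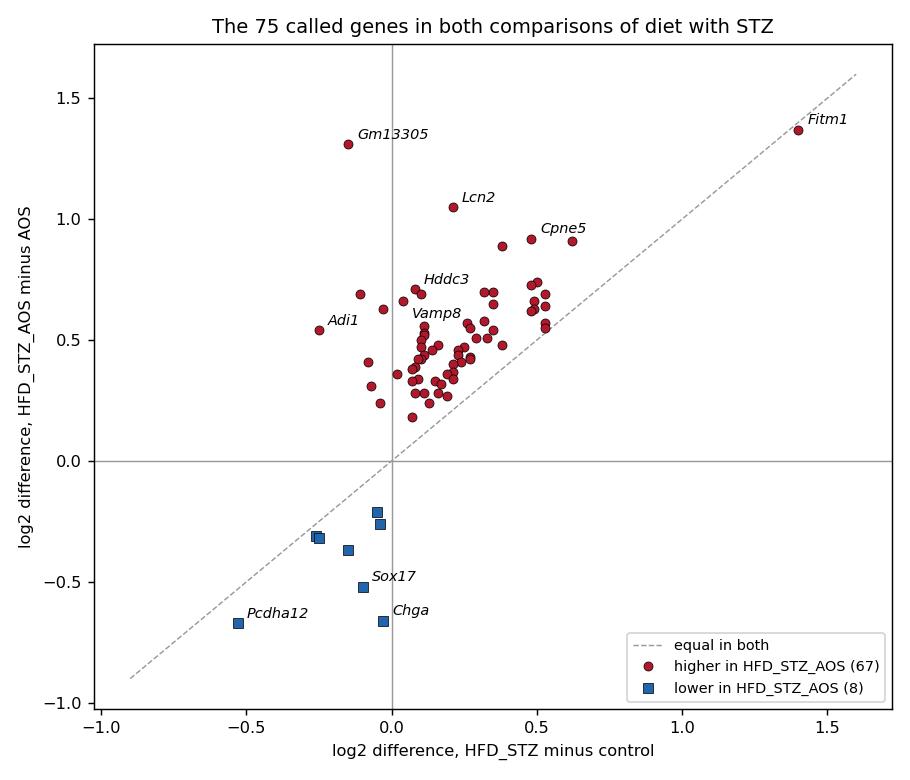
Log2 difference of each of the 75 called genes for HFD_STZ_AOS minus AOS (vertical axis) and for HFD_STZ minus control (horizontal axis), with circles for the 67 higher and squares for the 8 lower genes. Fitm1 lies near the line of equal differences at 1.37 and 1.40, whereas Gm13305, Lcn2, Hddc3 and Vamp8 lie above it with 0.21 or less without AOS.

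For a pair of genes on the X chromosome, values were listed under one copy in HFD_STZ_AOS and under the other in AOS. Btbd35f4 had 4.16, 2.22 and 3.35 RPKM in HFD_STZ_AOS, against 0.03, 0 and 0 RPKM in AOS, while Btbd35f3 was listed at 0 in all HFD_STZ_AOS libraries and had 2.88, 3.50 and 2.62 RPKM in AOS. They were chosen after their values were seen, as the 2 genes of the table at or above 1 RPKM in all libraries of one group and at or under 0.1 RPKM in all of the other. They were also the only calls of the fit on 6 libraries, with adjusted p of 0.0288 and 0.00339, while over 18 libraries the adjusted p was 0.0902 and 0.0874. Both belong to a multicopy family with a BTB domain. In the GENCODE annotation, Btbd35f4 (chromosome X, 4800496 to 4801986, plus strand) and Btbd35f3 (4037674 to 4039616, plus strand) have coding sequences of 1488 bases that are identical at every base. Their first 90 coding bases are shown in lower case, with no capitals because no base differs.
Btbd35f4: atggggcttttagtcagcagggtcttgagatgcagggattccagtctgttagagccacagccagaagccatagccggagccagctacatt
Btbd35f3: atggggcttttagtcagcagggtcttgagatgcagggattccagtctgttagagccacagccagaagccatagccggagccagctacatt

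A read from that coding sequence has no base that assigns it to either copy. The sum of both was 4.16, 2.22 and 3.35 RPKM in HFD_STZ_AOS, against 2.91, 3.50 and 2.62 RPKM in AOS, and these sums overlapped. Across all 18 libraries, Btbd35f4 was at 1.90 to 4.16 RPKM in 7 libraries in which Btbd35f3 was at 0.14 RPKM or less, and Btbd35f3 was at 1.35 to 4.21 RPKM in the other 11, in which Btbd35f4 was at 0.08 RPKM or less. Libraries of both kinds occurred in HFD_STZ, in control and in the HFD_STZ_control_FMT group.

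**Figure D5:**
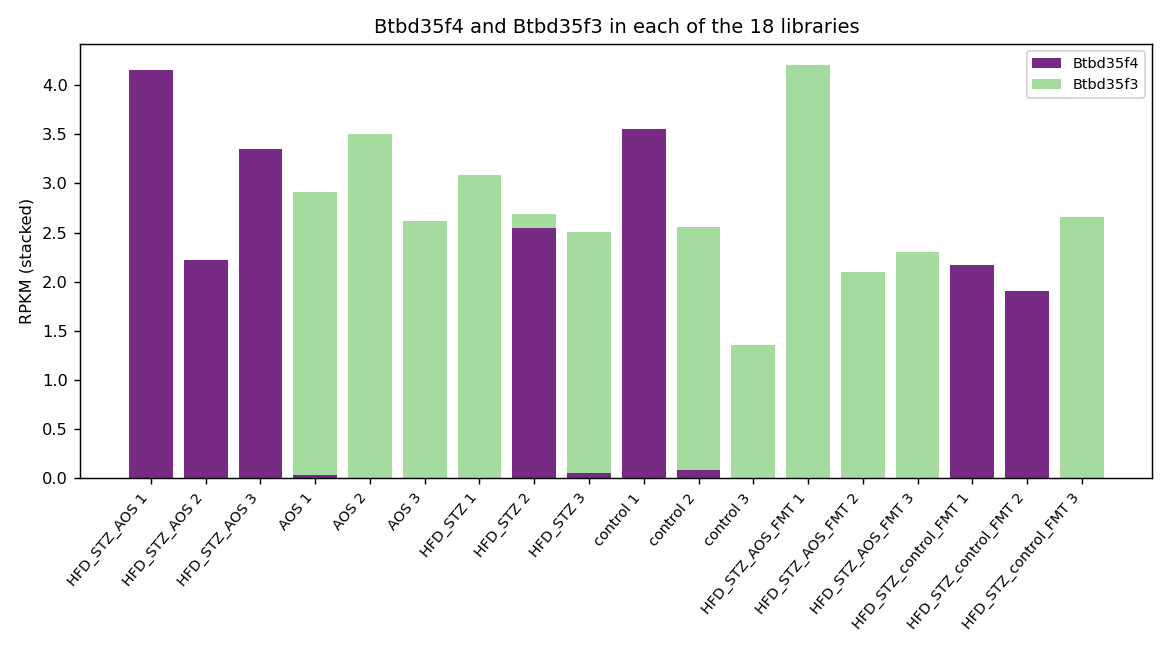
Stacked RPKM of Btbd35f4 and Btbd35f3 in each of the 18 libraries, with replicate numbers after the group names. Each library shows nearly all of its signal in 1 of the 2 identical coding sequences, Btbd35f4 in all 3 HFD_STZ_AOS libraries and Btbd35f3 in all 3 AOS libraries, and the stacked heights of those groups overlap.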

How the data were processed

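For the 18 testis libraries, a single table with RPKM by gene symbol, rounded to hundredths, was deposited by the authors. The submitters' processing notes name Bowtie 0.12.2 and mm10. The sources used here do not give the counting tool, the annotation or the use of strand. Reads of overlapping genes, antisense genes and close copies may therefore be mixed, and a shift in abundant or long transcripts moves the other values. Of 20985 rows, 6 rows of 3 repeated symbols were left out, and 22 rows turned into dates were not named.

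The members of the comparison, the 32 gene lists and the rule for named genes were chosen with earlier results of these data known. The rule took up to 12 higher and 12 lower genes by size of the difference among those called with groups apart and a mean of at least 1 RPKM, 5 genes by the test of the difference with and without AOS, up to 3 members of each list by p and a panel of 11 genes. A few genes taken by the rule are counted but not reported here. Other called genes were chosen after their values were seen. Values were tested as log2(RPKM + 1) in limma 3.58.1 (R 4.3.3) using a mean-variance trend, 1 coefficient per group, 12 residual and 3.71 prior degrees of freedom, two-sided, adjusted by Benjamini-Hochberg over 13874 genes at 0.05. Positions and transcripts came from GENCODE vM21 (mm10), which matched 96.4% of symbols. The fit was tested on simulated data. Tables and plots were made with Python 3.11.15, pandas 2.3.3 and matplotlib 3.10.9. The alternatives tried are given with their effect in the closing section.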

Additional observations from a re-analysis of the deposited data

Results flagged for a closer look

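In 2 of the genes named by the rule, the groups did not overlap in either pair and differed in opposite directions with and without AOS. The test of that difference did not pass adjustment. How many of all genes tested show this pattern was not counted, so it is no result about these 2. AI467606, an uncharacterised gene, had 5.0, 4.98 and 4.37 RPKM in HFD_STZ_AOS against 4.14, 3.34 and 3.31 RPKM in AOS, but 2.87, 3.32 and 3.67 RPKM in HFD_STZ against 3.88, 4.18 and 4.46 RPKM in control. The effects differed by 0.61 ± 0.12 on the log2 scale (limma unadjusted p = 0.000178, adjusted p = 0.495). Tap2 had 0.90, 1.36 and 1.25 RPKM in HFD_STZ_AOS against 1.79, 4.36 and 2.15 RPKM in AOS, but 3.46, 2.79 and 4.17 RPKM in HFD_STZ against 1.71, 0.98 and 2.20 RPKM in control. Its effects differed by -1.52 ± 0.34 (limma unadjusted p = 0.000428, adjusted p = 0.628), and those of its neighbours Tap1 and Psmb9 by -2.49 and -1.97.

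Srrd passed a further criterion, by a narrow margin, in the microbiota transfer groups, which no comparison here used. Its lowest value in those 6 libraries was 26.14 RPKM, above the highest of the 6 AOS and control libraries, at 26.03 RPKM. Of the 67 higher genes 3 did so (Srrd, Rnf130 and Myl6), as did 0.656% of all genes tested. The 67 were selected for low AOS values against HFD_STZ_AOS, and the same AOS libraries enter this criterion. The count and that share therefore cannot be compared. The cause was not tested.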

How the results depend on the processing

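The count of 75 calls became 12 with median-ratio scaling, 2 without a filter, 2 in the fit on only the groups of the comparison, 4 with the transcript-length trend removed, 1 without the 4 libraries above 100 RPKM of Crisp1 (an alternative chosen after seeing the data, which omits HFD_STZ_AOS replicate 3) and 1 to 398 when 1 library was left out. It was 70 with a pseudocount of 0.1, 77 with robust empirical Bayes and 64 with a filter of 5 RPKM. With the replicate number as a block it was 25 (21 higher, 4 lower). Deviations of same-numbered libraries correlated at 0.077, -0.01 and 0.009, and 2 of 3 HFD_STZ_AOS libraries correlated best with another number, so the numbers were not taken as pairs. HFD_STZ against control gave 1 gene with the filter of 5 RPKM and 0 otherwise. The difference of both effects gave 0 genes throughout. Among the genes named by the rule, directions held in the alternatives run except for those below, and some list medians turned sign. The causes were not tested, except that fewer samples or fewer genes enter some fits by construction.

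Of the genes that reversed, none was called. Star, at 0.26 with all libraries, was the one not near 0. Median-ratio scaling gave Sycp3 -0.013, Tnp1 -0.038, Amh -0.019 and Cldn11 -0.015. Removing the length trend gave Sycp3 -0.028, Prm1 -0.028, Tnp1 -0.09, Amh -0.046 and Cldn11 -0.02. Amh was -0.012 with a pseudocount of 0.1. Without the 4 libraries, Star was -0.088, Cldn11 -0.065, Cd68 -0.137 and Tnp1 -0.024. With 1 library left out, Star ran from -0.088 to 0.446, Cyp17a1 from -0.113 to 0.032, Sycp3 from -0.015 to 0.104, Stra8 from -0.141 to 0.024, Tnp1 from -0.029 to 0.055, Amh from -0.138 to 0.119, Cldn11 from -0.065 to 0.11 and Cd68 from -0.137 to 0.238.

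Each group held 3 libraries. Low values of a gene rest on fewer reads than its high values, as for Tap1 in HFD_STZ_AOS against AOS.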

Other observations

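The leading genes were also measured in the microbiota transfer groups, whose mice had the diet with STZ as well. Fitm1 had 9.63, 7.97 and 8.66 RPKM in HFD_STZ_AOS_FMT and 8.93, 8.21 and 7.31 RPKM in HFD_STZ_control_FMT. All 6 values lay below the lowest HFD_STZ and HFD_STZ_AOS libraries, at 13.6 and 13.9 RPKM, and above the control libraries, at 4.86 to 6.99 RPKM. Hddc3 had 9.19, 9.09 and 10.2 RPKM in HFD_STZ_AOS_FMT and 8.29, 8.50 and 8.13 RPKM in HFD_STZ_control_FMT. These lay between the AOS libraries (6.76 to 7.15 RPKM) and the HFD_STZ_AOS libraries (10.6 to 14.4 RPKM). Vamp8 lay between the same groups, with 6.75 to 7.28 RPKM in HFD_STZ_AOS_FMT and 6.90 to 7.76 RPKM in HFD_STZ_control_FMT. These differences were not tested.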
